A study of Drosophila melanogaster with 9 samples.

Results

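The transcripts described here are those of 10 Drosophila melanogaster genes of the Frizzled planar polarity system, out of 17558 genes in the deposited count tables. They were taken by name, in exact case: the core genes fz, dsh, dgo, Vang, pk and stan, and the effector genes in, fy, frtz and mwh. All 10 passed the filter on low counts, which kept 11068 genes for testing.

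Planar polarity is the alignment of cells within the plane of an epithelium, such as the common direction of the hairs on a fly wing or the rotation of ommatidia, the unit eyes of the compound eye. Core proteins sort to opposite sides of each cell: Frizzled, Dishevelled and Diego on one side, Van Gogh and Prickle on the other, with the cadherin Starry night (Flamingo) on both. In wing cells the effectors Inturned, Fuzzy and Fritz gather where Van Gogh does and there hold Multiple wing hairs, which keeps actin hairs from growing anywhere but at one cell edge. The system works largely through where its proteins sit, which transcript levels do not show.

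RNA came from retinas of pupae raised at 25 °C and aged 40 to 41 hours from puparium formation, with 60 eyes pooled for each genotype. The series design names 3 biological replicates a group. Control eyes carried UAS-mCherry/pGMR-GAL4. Bon eyes carried UAS-bon-mCherry/+; pGMR-GAL4/+ and so overexpress Bonus, a transcriptional cofactor of the TIF1 family. Bon+yki-RNAi eyes carried UAS-bon-mCherry/+ together with pGMR-GAL4/UAS-yki-RNAi, which adds a knockdown of Yorkie, the coactivator restrained by the Hippo pathway. All 3 groups carry pGMR-GAL4, a driver of the differentiating eye cells behind the morphogenetic furrow. The Bon genotype has no second UAS construct to match the RNAi construct. The design asks how Bon and Yki act in the choice between eye and epidermis, at the stage when extra trichomes (epidermal hairs) begin to form in Bon eyes. For hair-forming cells the planar polarity genes are the ones that place the hair.

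Library totals ran from 34926438 to 48524961 counts. The targeted genes followed the labels: bon stood at 174 ± 2.94 CPM in mCherry, 4983 ± 258 CPM in Bon and 4166 ± 48.1 CPM in Bon+yki-RNAi, and yki at 61.1 ± 1.46, 62.6 ± 0.316 and 29.2 ± 0.25 CPM (mean ± SD, n = 3; CPM are counts per 1000000 of the scaled library size). Between the last 2 groups bon itself differed by -0.26 ± 0.03 on the log2 scale (edgeR quasi-likelihood adjusted p = 6.14e-05), and its part in the differences described below was not tested. Markers of the retina were present, with summed levels over 12 genes of 3593 to 3648 CPM for mCherry eyes, 2323 to 2409 CPM for Bon eyes and 2435 to 2452 CPM for Bon+yki-RNAi eyes. The photoreceptor regulator gl stood at 421, 454 and 429 CPM in that order, and the lens gene Crys at 9.48, 0.0674 and 0.0998 CPM. With Bon, 9 of the 12 retina markers fell, among them sv (-2.07 ± 0.04), ninaC (-1.29 ± 0.03) and eya (-1.06 ± 0.05). The 2 that rose were gl and elav. Of all tested genes 27.2% fell and 25.2% rose with Bon. With yki knockdown 5 of the 12 rose and 3 fell, where 11.3% of all tested genes rose and 16.3% fell. The smallest p were those of chp (-1.33 ± 0.05, from 293 to 117 CPM) and ct (0.69 ± 0.05, from 214 to 345 CPM), so similar sums hide opposite changes. Glial markers (8 genes) summed to 1759 to 1787, 1542 to 1603 and 1558 to 1597 CPM, with gcm near 0. With Bon, wrapper (-1.30 ± 0.03), Eaat1, loco and nrv2 fell, Gli rose (0.58 ± 0.03), and the glial regulator repo and moody did not pass; repo stood at 126, 133 and 151 CPM. Optic lobe and brain neuron markers (9 genes) summed to 312 to 345, 362 to 381 and 426 to 435 CPM. Hemocyte markers (8 genes) summed to 467 to 475, 437 to 453 and 439 to 442 CPM, carried by crq, Pxn and lz. Of these, lz is also one of the 12 retina markers, so its 207, 220 and 199 CPM enter both sums. The group means of Hml were at most 1.43 CPM, and He had 0 counts in every library. Muscle markers (10 genes) summed to 974 to 1105, 522 to 597 and 629 to 667 CPM. Nearly all of that was sls, with the muscle myosin gene Mhc at 1.45, 1.57 and 2.45 CPM. Fat body markers (6 genes) lay between 7.38 and 14.7 CPM in sum. The part of these cell types in the results was not tested, and in whole retinas fewer cells of a type and less RNA per cell cannot be told apart.

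Every member was well covered, from 752.5 counts for frtz in one library to 43860.5 for stan in another. The spread among the 3 libraries of a group was small, with a coefficient of variation of 0.301% to 7.94%. To compare one gene with another, CPM were divided by the length of the gene's exons in kilobases. The plot of levels by library shows all 10 genes on this scale.

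**Figure D1:**
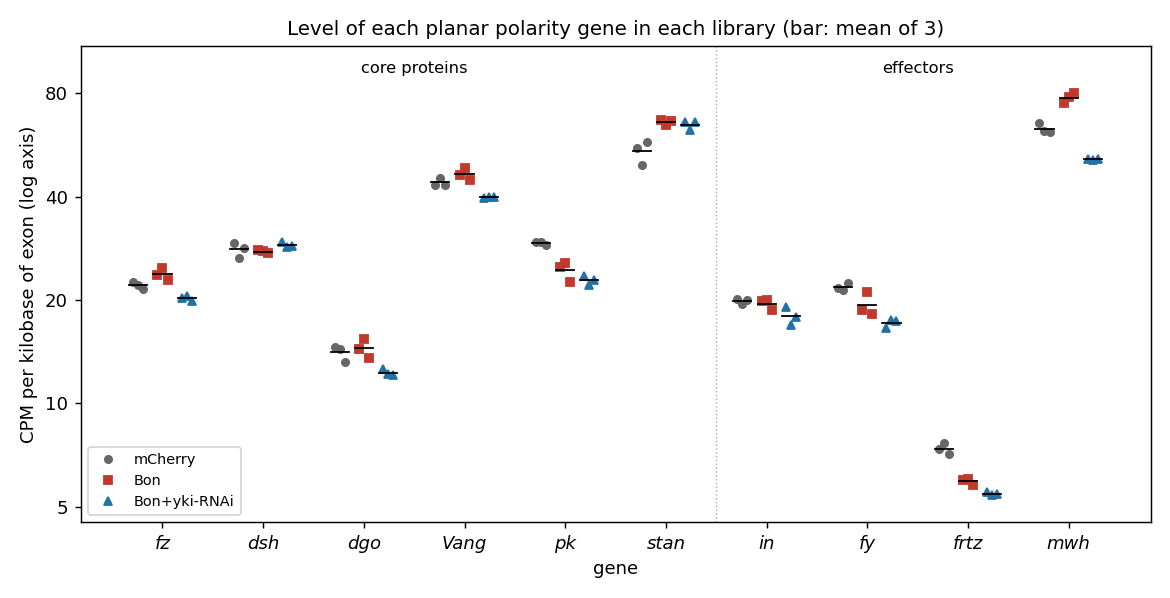
Level of each planar polarity gene in CPM per kilobase of exon (log axis), 1 point per library and a bar at the mean of 3 libraries. The gene mwh ranked first in mCherry and Bon eyes and second, after stan, in Bon+yki-RNAi eyes, and frtz ranked last in every group.

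In control eyes the receptor gene fz (3L, 14274343 to 14368639 in BDGP6) stood at 22.1 ± 0.567 CPM per kb. The gene dsh (X, 11355881 to 11358724), whose product binds Frizzled and also relays canonical Wnt signals, stood at 28.1 ± 1.38. The gene dgo (2R, 10816037 to 10819884), which encodes an ankyrin-repeat partner of Dishevelled, stood at 14.1 ± 0.755, the lowest of the core set. On the other side of the system, the membrane protein gene Vang (2R, 9103238 to 9106796) stood at 44.0 ± 1.08 and its partner pk (2R, 7150703 to 7223378), of LIM-domain proteins, at 29.3 ± 0.369 CPM per kb. The cadherin gene stan (2R, 10673345 to 10721138) stood at 54.3 ± 4.22. Among the effectors, in (3L, 20367198 to 20370259), fy (2L, 8401476 to 8403280) and frtz (2L, 1711302 to 1715851) stood at 19.9 ± 0.309, 21.8 ± 0.48 and 7.37 ± 0.251. The gene mwh (3L, 1200786 to 1232700), which encodes a formin-related inhibitor of hair initiation, had the highest level of all 10, at 63.1 ± 2.22 CPM per kb (SD, n = 3 for each).

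The order in control eyes was therefore mwh, stan, Vang, pk, dsh, fz, fy, in, dgo and frtz. Neighbours in this order were separate in all libraries except pk and dsh, and fz and fy, whose ranges overlapped. In Bon eyes the order had dsh above pk and in above fy, and the overlapping neighbours were pk and fz, and in and fy. In Bon+yki-RNAi eyes stan moved above mwh, 64.9 ± 1.98 against 51.5 ± 0.304 CPM per kb, without overlap. The only overlapping neighbours there were in and fy. The length used for each gene is that of all its annotated exons, so a gene with long unused exons reads lower on this scale.

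Exons of 8 members overlapped no other gene's exons in the deposited annotation. Counts with decimals still occurred for these members, from 2 of the 9 libraries for dgo to 8 for Vang. For fy and frtz they occurred in 6 each. How the decimals arose is not given in the sources used here. The exons of fy share 117 bases (6.93% of its exon length) with CG31898 on the opposite strand, and those of frtz share 164 bases (4.55%) with mRpL48, also on the opposite strand. In control eyes CG31898 stood at 0.81 CPM and mRpL48 at 11.5 CPM. Neither neighbour passed the test in any of the 3 comparisons, with adjusted p values of 0.175 to 0.744 and 0.0695 to 0.883. Whether the counting used strand is not given in the sources used here, so reads from these shared bases could not be assigned with certainty.

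With Bon overexpression the planar polarity genes moved in both directions and by small amounts. Of the 10 members, 4 rose (mwh, stan, fz and Vang), 3 fell (pk, fy and frtz) and 3 did not pass the threshold of an adjusted p of 0.05. Without mCherry replicate 3 the number that rose was 2, mwh and stan. Thus 7 of 10 members passed, and over all tested genes 52.4% passed, 25.2% higher and 27.2% lower. The median log2 fold change of the members was 0.01, beside 0.00 for all tested genes, and the median size without sign was 0.14 beside 0.18.

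Among the genes on the Frizzled side, fz stood at 86.3, 84.7 and 82.0 CPM in the mCherry libraries and at 90.4, 94.6 and 87.1 CPM in the Bon libraries. The Bon libraries were all higher, by a narrow margin. The log2 fold change was 0.11 ± 0.03 (± SE; adjusted p = 0.0158), a rise of 7.6%, and it missed the threshold without mCherry replicate 3 (0.08, adjusted p = 0.0692). With upper-quartile scaling it was 0.17 (adjusted p = 0.000366). In contrast dsh gave -0.02, with a 95% interval of -0.09 to 0.06, and dgo 0.04, with an interval of -0.06 to 0.14. Both groups overlapped for these 2 genes, and neither passed (adjusted p = 0.676 and 0.53).

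On the Van Gogh side the pair of partners differed from each other. Vang stood at 152, 158 and 151 CPM in mCherry and at 162, 169 and 157 CPM in Bon, ranges that overlap. Its rise of 0.08 ± 0.03 (adjusted p = 0.0385) missed the threshold without any one of mCherry replicates 1 and 3, Bon replicate 2 and the 3 Bon+yki-RNAi libraries (adjusted p = 0.0531 to 0.119), with DESeq2 (0.0546) and with only the 2 groups in the fit (0.0864). With upper-quartile scaling the rise was larger, at 0.15 (adjusted p = 0.000593). Its partner pk went the other way, from 199, 199 and 195 CPM to 168, 173 and 153 CPM. All Bon libraries were below all control libraries, and the log2 fold change was -0.26 ± 0.04 (adjusted p = 9.35e-05), so pk fell by 16.7%. The cadherin gene stan, which serves both sides, stood at 752, 671 and 782 CPM in mCherry and at 908, 873 and 901 CPM in Bon. Its groups did not overlap either, and it rose by 0.28 ± 0.05 (adjusted p = 0.000295).

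The effectors also split. The hair inhibitor gene mwh stood at 312, 295 and 293 CPM in mCherry and at 356, 370.5 and 379.6 CPM in Bon. Each Bon library was above each control library. Its rise of 0.30 ± 0.03 (adjusted p = 1.32e-06), or 23.0%, was the largest rise among the members, and 34.5% of all tested genes changed more. Against this, frtz went from 26.5, 27.5 and 25.7 CPM to 21.5, 21.7 and 20.8 CPM. That is a fall of -0.32 ± 0.04 (adjusted p = 1.05e-05) with no overlap, the largest change among the members in either direction. For fy the values were 36.7, 36.1 and 37.7 CPM in mCherry and 31.6, 35.6 and 30.7 CPM in Bon, with Bon replicate 2 close to the controls. Its change of -0.17 ± 0.05 (adjusted p = 0.00924) missed the threshold without Bon replicate 1 (-0.14, 0.0574), without Bon replicate 3 (-0.12, 0.0523) and with upper-quartile scaling (-0.11, 0.0767). The third of these partners, in, gave -0.02 with an interval of -0.11 to 0.07 (adjusted p = 0.669).

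In all, 6 members had groups that did not overlap, 3 higher and 3 lower in Bon, where 58.6% of all tested genes had such groups, 28.7% higher and 29.9% lower. In the authors' deposited table the same contrast passed an adjusted p of 0.05 for mwh (log2 fold change 0.30), stan (0.29), pk (-0.26), frtz (-0.32) and fy (-0.17), and missed it for fz (0.11, adjusted p = 0.0606) and Vang (0.08, adjusted p = 0.113).

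**Figure D2:**
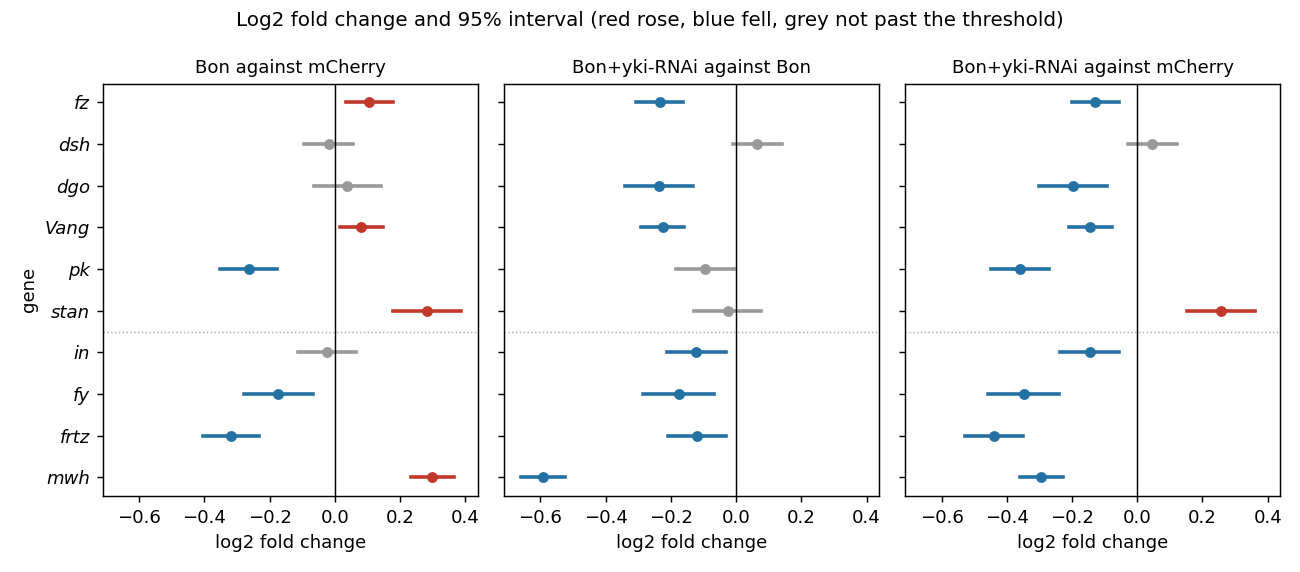
Log2 fold change of each planar polarity gene (point) with its 95% interval (line) in the 3 comparisons, from the edgeR fit of all 9 libraries, n = 3 a group. In the comparison of Bon+yki-RNAi with Bon the point of mwh lies at -0.59, farther from 0 than any other member, while stan and dsh lie near 0.

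When yki was knocked down in Bon eyes, 7 of the 10 planar polarity genes fell: fz, dgo, Vang, mwh, fy, in and frtz. None rose in the edgeR test, also at an unadjusted p under 0.05, with DESeq2 or with limma-voom. Of all tested genes, 27.6% passed the threshold, 11.3% higher and 16.3% lower. The members' median log2 fold change was -0.15, beside -0.01 for all tested genes. Since the genes were chosen with earlier results of these data known, these counts describe the members and are no test of the group.

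The largest fall was that of mwh, from 356, 370.5 and 379.6 CPM in Bon to 245, 243 and 245 CPM in Bon+yki-RNAi. The groups were far apart, and the RNAi libraries differed from each other by less than 3 CPM. The log2 fold change was -0.59 ± 0.03 (adjusted p = 5.18e-09), so mwh fell by 33.7%, and 8.55% of tested genes changed more in either direction. It stayed between -0.62 and -0.57 in all 18 alternative settings.

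Of the core genes, fz, Vang and dgo fell by nearly the same amount. For fz the Bon+yki-RNAi libraries held 77.1, 78.4 and 76.0 CPM, below all 3 Bon libraries (-0.23 ± 0.03, adjusted p = 0.000115). For Vang they held 139, 139.5 and 139 CPM, likewise below (-0.23 ± 0.03, adjusted p = 7.51e-05). For dgo the values were 51.1, 54.5 and 47.9 CPM in Bon and 44.5, 43.2 and 42.8 CPM in Bon+yki-RNAi (-0.24 ± 0.05, adjusted p = 0.0021). These 3 falls passed the threshold in every alternative setting.

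The other core genes did not pass. For stan the RNAi libraries held 893, 847 and 894 CPM, of which the lowest lay below the Bon libraries (873 to 908 CPM) and the others within them, and the change was -0.03 with an interval of -0.13 to 0.08 (adjusted p = 0.745). For pk they held 159, 149 and 154 CPM, overlapping the Bon values, with a change of -0.10 and an interval of -0.18 to -0.01 (adjusted p = 0.104). Without Bon replicate 3, the lowest Bon library for pk, the change was -0.15 and passed (adjusted p = 0.00322). For dsh the RNAi libraries held 84.2, 81.1 and 81.8 CPM, all above the Bon values of 79.5, 78.8 and 77.8 CPM. The difference of 0.07, with an interval of -0.01 to 0.14, did not pass (adjusted p = 0.183), but did with only the 2 groups in the fit (0.07, adjusted p = 0.0498).

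The partners in, fy and frtz fell by less than mwh, and close to the threshold. For fy the RNAi libraries held 28.0, 29.5 and 29.2 CPM, below all Bon libraries (-0.18 ± 0.05, adjusted p = 0.0185). The call was lost without Bon replicate 2 (-0.11, 0.0781) and without Bon+yki-RNAi replicate 1 (-0.15, 0.0829). For frtz they held 19.8, 19.5 and 19.6 CPM, again below (-0.12 ± 0.04, adjusted p = 0.0444). For in they held 58.4, 51.8 and 54.7 CPM against 61.0, 61.1 and 57.2 CPM in Bon, which overlap (-0.12 ± 0.04, adjusted p = 0.0435). Both in and frtz missed the threshold in 11 of 18 alternative settings, RLE and upper-quartile scaling among them. Single libraries also decided these calls: in was lost without mCherry replicates 1 or 3, Bon replicates 1 or 2, or Bon+yki-RNAi replicates 2 or 3 (adjusted p = 0.0526 to 0.229), and frtz without mCherry replicate 1, Bon replicates 1 or 2, or any Bon+yki-RNAi library (0.0534 to 0.128). Without Bon replicate 2 the number of members that fell was 4, namely fz, Vang, dgo and mwh.

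Those 4 genes also passed in the authors' deposited table, at log2 fold changes of -0.22, -0.21, -0.22 and -0.58. In that table in, fy and frtz missed an adjusted p of 0.05 (0.128, 0.055 and 0.31). Counted by overlap, 6 members were lower in every RNAi library than in every Bon library and dsh was higher, 7 in all, where 44.4% of all tested genes had such groups, 19.6% higher and 24.8% lower.

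Set against control eyes, Bon+yki-RNAi eyes had lower levels of 8 members and a higher level of 1. Of all tested genes, 54.5% passed the threshold in this comparison, 25.1% higher and 29.4% lower. This comparison and the previous ones share their libraries, so its values are given beside theirs and not as separate support. The gene mwh fell by 18.4% relative to control (-0.29 ± 0.03, adjusted p = 1.61e-06), having stood 23.0% above it in Bon eyes. The lowest values relative to control were those of frtz (-0.44 ± 0.04, adjusted p = 4.17e-07), pk (-0.36 ± 0.04, adjusted p = 4.99e-06) and fy (-0.35 ± 0.05, adjusted p = 3.83e-05). Smaller falls were those of dgo (-0.20 ± 0.05), in (-0.15 ± 0.04), Vang (-0.14 ± 0.03) and fz (-0.13 ± 0.03). The cadherin gene stan rose, at 0.26 ± 0.05 (adjusted p = 0.000582), close to its 0.28 in Bon eyes. For dsh the change was 0.05, with an interval of -0.03 to 0.12 (adjusted p = 0.28). In 9 members the 2 groups did not overlap, 1 higher and 8 lower, beside 61.8% of all tested genes, 29.2% higher and 32.6% lower. The small falls moved with the scaling. Under upper-quartile factors those of fz (-0.04, adjusted p = 0.339), Vang (-0.05, 0.135), dgo (-0.11, 0.0652) and in (-0.05, 0.279) missed the threshold, and dsh rose (0.14, 0.00346). The call of in was also lost without Bon+yki-RNAi replicate 2 (-0.10, 0.0565).

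Ratios between members within one library do not depend on how libraries are scaled. They were formed from counts per kilobase, for pairs chosen after the values were seen, and are given as descriptions. With 3 libraries against 3, no exact two-sided permutation test can give a p under 0.1.

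The ratio of fz to Vang, the membrane proteins of opposite sides, was 0.502 ± 0.0166 in mCherry, 0.51 ± 0.00117 in Bon and 0.507 ± 0.00724 in Bon+yki-RNAi (SD, n = 3). All 9 libraries lay between 0.49 and 0.521, and the groups overlapped. The small changes of these 2 genes across genotypes thus ran in parallel. The ratio of dsh to fz was 1.27 ± 0.0632 in mCherry, 1.17 ± 0.0423 in Bon and 1.43 ± 0.0404 in Bon+yki-RNAi, and the Bon+yki-RNAi libraries lay above all others. The ratio of pk to Vang, partners on the same side, was 0.667 ± 0.0146 in mCherry, 0.524 ± 0.0175 in Bon and 0.574 ± 0.02 in Bon+yki-RNAi, with no overlap between any of the groups.

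The ratio of stan to pk was 1.85 ± 0.161 in mCherry, 2.72 ± 0.218 in Bon and 2.84 ± 0.0422 in Bon+yki-RNAi. Both groups with the Bon transgene lay above all controls and overlapped each other. The ratio of mwh to the sum of in, fy and frtz was 1.29 ± 0.0461 in mCherry, 1.74 ± 0.119 in Bon and 1.27 ± 0.0154 in Bon+yki-RNAi. Here the Bon libraries stood above the rest and the other two groups overlapped. Relative to fz, mwh stood at 2.86 ± 0.0551, 3.27 ± 0.2 and 2.55 ± 0.0534 in the same order, without overlap.

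**Figure D3:**
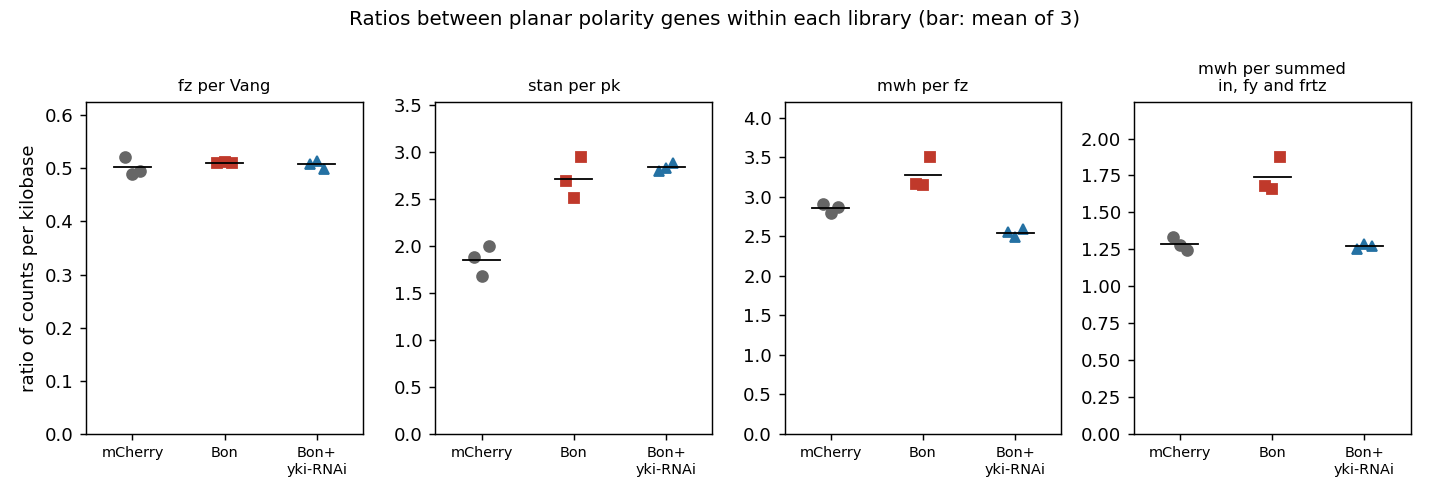
Ratios of counts per kilobase between planar polarity genes in each library (points) with the mean of 3 libraries (bar), each axis from 0. The ratio of fz to Vang lay between 0.49 and 0.521 in all libraries, while stan per pk was higher in both groups with the Bon transgene and mwh per summed in, fy and frtz was higher in Bon alone.

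Other genes of the pathway were read from the same fit, in lists chosen with earlier results known, and at most the 3 members with the smallest p among those called are named. Beside the counts for these lists, 52.4% of all tested genes passed with Bon (25.2% higher, 27.2% lower). With yki knockdown 27.6% passed (11.3% higher, 16.3% lower). Of 13 modulators and relatives of the core proteins, 2 rose and 5 fell with Bon, with a list median of -0.05. The gene kermit, whose product interacts with Van Gogh, had -0.67 ± 0.03 (adjusted p = 5.75e-10), scrib, which encodes a polarity scaffold, had -0.34 ± 0.03, and the kinase gene nmo, which acts in ommatidial rotation, rose by 0.26 ± 0.03. With yki knockdown 3 rose and 2 fell (median 0.01): nmo rose by a further 0.20 ± 0.03 (adjusted p = 9.05e-05), Rab23, a vesicle traffic gene needed for hair number in the wing, had -0.28 ± 0.04, and the prickle paralog esn had -0.15 ± 0.03. With upper-quartile scaling 4 of these genes rose with Bon and 5 rose with yki knockdown.

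Of 18 actin and myosin regulators that act in hair outgrowth, 5 rose and 5 fell with Bon (median -0.01; 8 rose and 4 fell with upper-quartile scaling). The formin gene dia had -0.69 ± 0.03 (adjusted p = 2.72e-10), zip, which encodes the heavy chain of nonmuscle myosin, had -0.40 ± 0.03, and the profilin gene chic rose by 0.34 ± 0.03. With yki knockdown 5 fell and the other 13 did not pass (median -0.05). Over all tested genes 52.4% passed with Bon and 27.6% with yki knockdown, and the share of this list that passed lies near these in both comparisons. Those with the smallest p were ck, which encodes myosin VIIa (-0.24 ± 0.03, adjusted p = 2.57e-05), chic (-0.23 ± 0.03) and the GTPase gene Rac2 (-0.19 ± 0.02).

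A list of 10 genes was drawn up around the choice between the R3 and R4 photoreceptors, through which Frizzled signalling sets ommatidial polarity. Not every gene listed need act in that choice itself. Of the 10, 4 rose and 3 fell with Bon (median -0.06, and 4 and 2 with upper-quartile scaling). The Notch ligand gene Dl went from 60.5 ± 3.09 to 30.5 ± 3.12 CPM (-0.99 ± 0.06, adjusted p = 4.27e-08). The Notch-responsive R4 gene E(spl)mdelta-HLH had -0.74 ± 0.08 and the nuclear receptor gene svp 0.29 ± 0.03. With yki knockdown 5 rose and 1 fell (median 0.07). Over all tested genes 52.4% passed with Bon and 27.6% with yki knockdown. E(spl)mdelta-HLH went from 6.46 ± 0.269 to 17.1 ± 1.15 CPM (1.41 ± 0.07, adjusted p = 5.05e-09), neur, a ubiquitin ligase gene of Notch signalling, rose by 0.22 ± 0.03 and the EGFR inhibitor gene aos by 0.25 ± 0.04. At this stage R3 and R4 are long specified, so these genes are given as the pathway's known partners and not as a measure of that choice.

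Of 11 Frizzled relatives, coreceptors and Wnt ligands, 5 rose and 3 fell with Bon (median 0.06; 6 and 2 with upper-quartile scaling). Those with the smallest p were ligand genes: Wnt2 went from 0.946 ± 0.113 to 6.65 ± 0.563 CPM (2.80 ± 0.12), Wnt6 from 17.2 ± 0.676 to 4.97 ± 0.683 CPM (-1.78 ± 0.08) and wg from 54.6 ± 1.72 to 84.6 ± 5.7 CPM (0.63 ± 0.04). Named after their values were seen, the ligand genes Wnt4 (0.71 ± 0.05) and wntD (2.69 ± 0.34, from 0.0797 to 0.555 CPM) also rose. The control mean of wntD lies within the 0.0618 to 0.0859 CPM that 3 counts make before scaling, so its fold change starts near the floor. With yki knockdown 4 rose and 3 fell, with Wnt2 at -2.57 ± 0.12, Wnt6 at 1.01 ± 0.09 and wg at 0.39 ± 0.04. Of 8 genes of the Fat and Dachsous branch, the other polarity system of epithelia, 3 rose and 4 fell with Bon, and 6 fell with yki knockdown while app and Dlish did not pass. The cadherin gene ft had -0.63 ± 0.04 in the second comparison (adjusted p = 4.96e-08), its ligand gene ds -0.37 ± 0.04 and the ubiquitin ligase gene Fbxl7 -0.44 ± 0.04. Beside the counts of both lists, 52.4% of all tested genes passed with Bon and 27.6% with yki knockdown.

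Of 14 regulators and structural genes of trichomes, 7 rose and 7 fell with Bon, with a median size without sign of 0.58, beside 0.14 for the 10 planar polarity genes, 0.09 for the 18 actin and myosin regulators and 0.18 for all tested genes. It was 0.63 for the 11 Frizzled relatives, coreceptors and Wnt ligands and 0.33 for the 8 Fat and Dachsous genes. For the 13 modulators it was 0.16 and for the 10 R3 and R4 genes 0.10. The hair gene sha rose by 2.68 ± 0.05, the actin bundler gene f by 1.01 ± 0.03 and nyo, of the zona pellucida domain family, by 0.92 ± 0.03. Among those that fell, named after their values were seen, dyl of the same family went from 329.8 ± 26.9 to 26.6 ± 5.09 CPM (-3.64 ± 0.14, adjusted p = 5.21e-07) and dy had -1.24 ± 0.14. With yki knockdown 12 fell and 1 rose (median -0.59), with mey and neo, of that family, at -1.30 ± 0.03 and -0.75 ± 0.03 and f at -0.94 ± 0.03. The change of mwh in that comparison, -0.59, equalled the median of this list. Over all tested genes 52.4% passed with Bon and 27.6% with yki knockdown. No test compares these lists with each other.

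**Figure D4:**
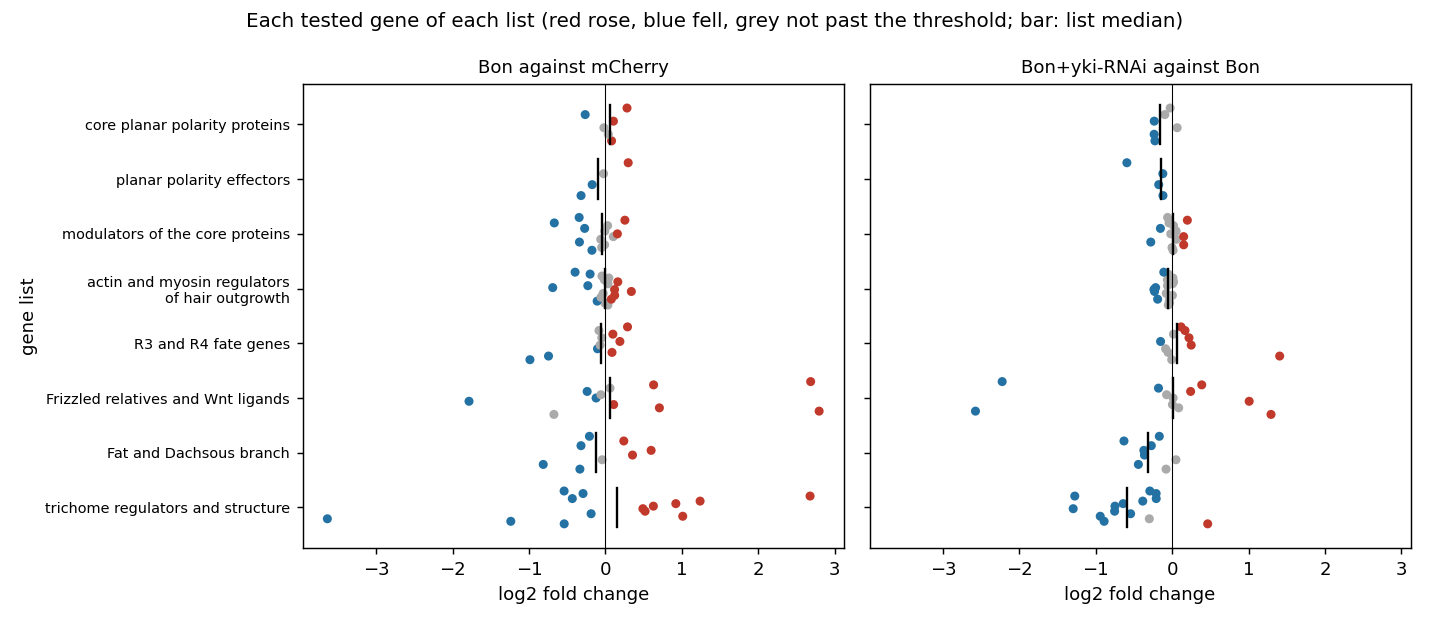
Log2 fold change of every tested gene of each list (points, coloured by the edgeR call) with the list median (bar), for Bon against mCherry and for Bon+yki-RNAi against Bon. The planar polarity genes lie within -0.32 to 0.30 in the first comparison. Each of the other lists has genes outside that range, with trichome and Wnt genes reaching farthest.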

How the data were processed

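The members and the gene lists were chosen with earlier results of these data known. For each of 9 libraries the authors deposited gene counts. The submitters' processing notes name the build BDGP6, featureCounts of Subread 1.6.2, STAR 2.7.0e, Bowtie2 2.3.5.1, cutadapt 2.9 and DESeq2 1.30.1. Strandedness is not given in the sources used here, nor are the tools' roles and options. The deposited values are expected counts that need not be whole (39.7 to 42.8% of values per library were not), and were rounded. The authors also deposited tables for 2 comparisons with a size-factor-scaled signal per library, a p-value, a −log10 adjusted p, a log2 fold change and a linear fold ratio; only log2 fold changes and adjusted p were quoted from them.

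Genes were kept with filterByExpr (minimum count 10) and scaled by TMM factors. The quasi-likelihood test of edgeR 4.0.16 in R 4.3.3 (robust, group as the only term, 9 libraries) gave two-sided p and log2 fold changes. P was adjusted by Benjamini-Hochberg over 11068 genes, with a threshold of 0.05. The SE is the fold change over the square root of F, and intervals are 95%. DESeq2 1.42.0 and limma 3.58.1 (voom) were alternatives, as were other scalings, filters, rounding, fits and leaving out each library. Code was tested on simulated data. Libraries of one group were not duplicates (their pairwise chi-square per gene was 2.66 to 11.3). Depth was 34926438 to 48524961 counts; 3 counts are 0.0618 to 0.0859 CPM before scaling, counting error only. The design calls the replicates biological, while the extraction text pools eyes by genotype, so p-values measure the spread between these libraries. The named genes were all 10 members, bon and yki, at most 3 called genes with the smallest p per list and comparison, and for mwh and fz the 5 genes of most similar pattern. Cell type markers were named outside this rule, as were the genes marked above as named after their values were seen.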

Additional observations from a re-analysis of the deposited data

How the results depend on the processing

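Each of the 30 member results was recomputed under 18 alternatives: 490 of 540 values kept direction and side of the threshold, 41 missed the threshold in the same direction, 3 newly passed and 6 changed sign, none of those 6 past the threshold in any setting. The sign changes were dsh (0.048) and in (0.043) in Bon against mCherry with upper-quartile factors, and others with 1 library left out: in that comparison dsh ran from -0.051 to 0.024, dgo from -0.0068 to 0.0896 and in from -0.029 to 0.014, and stan ran from -0.045 to 0.00401 in Bon+yki-RNAi against Bon. Leaving out 1 library gave 2 to 4 members risen in Bon against mCherry and 4 to 8 fallen in Bon+yki-RNAi against Bon. With only the 2 groups in the fit, 1 member (dsh) rose in the latter. Upper-quartile factors gave 2 risen and 4 fallen members in Bon+yki-RNAi against mCherry, with 4252 genes risen against 2773. They moved the share of rises among all calls from 48.1% to 62.6%, 41.0% to 52.3% and 46.0% to 63.8% in the 3 comparisons, and the median of all genes by 0.07, 0.02 and 0.09. The cause was not tested. Replicate numbers were not used as pairs in the main fit. Of 9 same-numbered pairs of libraries, 1 correlated above 0.1 (r from -0.024 to 0.138 over all 9). Within each comparison, every library of the first-named group was set against the libraries of the other group. In 6 of these 9 cases the best match had the same number. These values do not decide whether the numbers mark pairs. With a replicate block 5986, 3448 and 6266 genes were called instead of 5795, 3054 and 6032, and the member counts were equal. The lowest count of a member in a library was 752.5.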

Other observations

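The genes whose log2 CPM followed that of mwh most closely over the 9 libraries, among 7907 genes with a mean of at least 5 CPM, were NTPase (Pearson r = 0.988), CG14855 (0.988), CG11686 (0.987), CG41520 (0.986) and CG8420 (0.986). CG8420 stood at 341 CPM in mCherry, 535 in Bon and 255 in Bon+yki-RNAi, and CG14855 at 19.9, 31.0 and 14.5 CPM, a wider swing than that of mwh. NTPase, at 125, 133 and 118 CPM, followed the same order over a narrower range. For fz the closest were yellow-c (r = 0.987), Pal1 (0.982), CG30463 (0.981), CIAPIN1 (0.977) and CG5706 (0.975), each highest in Bon and lowest in Bon+yki-RNAi. The 9 libraries form 3 groups, so these correlations mostly restate the order of the group means, and no p is given.

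As a share of the summed counts per kilobase of the 10 planar polarity genes, mwh made up 20.8 ± 0.465% in mCherry, 23.9 ± 0.958% in Bon and 18.3 ± 0.158% in Bon+yki-RNAi, and stan 17.8 ± 1.18, 20.3 ± 0.743 and 23.1 ± 0.422%, with no overlap between groups for either gene. A share also moves when other members change. Between Bon and Bon+yki-RNAi stan itself did not pass (-0.03, edgeR adjusted p = 0.745) and its groups overlapped, while 7 other members fell. The share of fz was 7.27 ± 0.19, 7.3 ± 0.174 and 7.19 ± 0.195%, and its groups overlapped.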
